A study of Danio rerio with 53 samples.

Results

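B cells of the zebrafish thymus (label Thymic B, population T4) were compared with thymic T lineage cells of the label T Stage II (population T1). The labels define it as the thymus libraries of these populations in the 2 rag2RFP lines. It took 12 of the 53 libraries of the series, 6 thymic B and 6 T Stage II. Both populations came from the same lines, rag2RFP-cd79aGFP and rag2RFP-cd79bGFP, with 3 libraries of each population per line. All 12 libraries thus came from fish with a red RFP reporter under the rag2 promoter. The GFP reporter stood under the promoter of cd79a in one line and of cd79b in the other. Thymic B were replicates 33 to 35 of the cd79a line and 4 to 6 of the cd79b line, and T Stage II were replicates 24 to 26 and 1 to 3. The whole series sorted lymphocytes from thymus and marrow of 4 double-transgenic lines by fluorescence, under 10 cell type names. RNA was measured by QuantSeq FWD, which reads the 3′ end of each messenger RNA, and no animal was treated, per the labels. The labels do not give the age of the fish, how many fish went into a library, or the fluorescence gate of a population. A promoter reporter marks a cell by the activity of that promoter, and the protein can outlast it.

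Most cells of a thymus are T lineage cells that rearrange their receptor genes with the RAG1 and RAG2 recombinase, divide, and are selected on self peptides held by MHC molecules. A small population of B cells also lives in the thymus; in mammals these cells are known to present antigen to developing T cells. B and T cells carry related antigen receptors whose signals pass through parallel sets of kinases and adaptors: cd79a, cd79b, SYK, blnk and PLCG2 in B cells, and the CD3 chains, lck, ZAP70, lat and PLCG1 in T cells. Gene symbols are written as the name table gives them, in capitals where it carries the symbol of the human counterpart. The identifier follows where several zebrafish genes share one symbol.

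Marker levels differed between the populations in the direction of the labels. The B lineage markers include cd79a and cd79b, whose promoters drive the GFP of the sorted fish. Neither these genes nor gfp are thus a check independent of the sort. The 9 B lineage markers in the table summed to 2968 to 5688 CPM (counts relative to the total of their library) in thymic B and 0 to 20.0 CPM in T Stage II. The 11 T lineage markers summed to 27.9 to 131 CPM and 3181 to 4517 CPM. The gfp transgene had no count in the 6 T Stage II libraries. Thymic B held 713, 477 and 56.4 CPM of gfp in cd79b replicates 4, 5 and 6 and 5773, 2365 and 4267 CPM in cd79a replicates 33, 34 and 35, so every cd79a library was above every cd79b library. Totals ran from 7756073 to 14752089 counts per library, so that 3 counts, the limit a count of 0 allows, were at most 0.387 CPM. The 2 populations differed in how many genes were seen. Thymic B libraries held 5702 ± 1098 genes with at least 1 count and T Stage II libraries 9149 ± 1111 (SD, n = 6 each), without overlap, a difference of -3448 genes (2-sided exact permutation p = 0.00216, the smallest that 6 against 6 libraries can give). With all libraries thinned to 7756073 counts the means were 5681 and 9081 genes. The 100 most abundant genes took 56.9% ± 3.83 of the counts in thymic B and 48.3% ± 3.75 in T Stage II (SD, n = 6 each; exact permutation p = 0.00433). Of the genes with a mean of at least 10 CPM in thymic B, 64.3% were at 0 in at least 1 thymic B library; in T Stage II the share was 14.5%. Pearson's r across genes between libraries of 1 group, on log2(CPM + 1), was 0.586 to 0.706 in thymic B and 0.785 to 0.843 in T Stage II.

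Of 9995 genes tested with line as a covariate by edgeR's quasi-likelihood test, 859 passed a Benjamini-Hochberg adjusted p of 0.05, which is 8.59% of them. Thymic B was higher for 271 genes (2.71%) and lower for 588 (5.88%). The 6 thymic B libraries lay above all 6 T Stage II libraries for 159 genes (1.59%) and below them for 698 (6.98%). The median fitted log2 fold change, thymic B over T Stage II, was -1.05 over all genes tested. It was -0.89 when RLE factors replaced TMM. Over the other settings that kept all 12 libraries it ran from -1.92 by limma voom to -0.42 without the line covariate, and it was -0.21 and -0.60 in the cd79a and cd79b lines alone. Values for single genes below stand beside a shift that depends on the setting to that degree. Of the genes called lower in thymic B, 420 of 588 had no count in any thymic B library, and the median level of the 588 in T Stage II was 20.3 CPM. Those called higher stood at a median of 128 CPM in thymic B, and 93 of 271 had no count in T Stage II. A gene entered the test with at least 10 counts in at least 3 of the 12 libraries. One with no count in a population could thus enter only through the other. The sign of such a gene was fixed in advance, and list medians include such genes. Numbers of called list members and of their signs below carry this limit and are no support by themselves. The direction was the same in both lines for 270 of the 271 and 586 of the 588. Each count moved with single libraries: 289 genes were lower without T Stage II replicate 1, 339 without thymic B replicate 5 and 379 without thymic B replicate 4. The labels do not say that the libraries of a group came from separate animals, so p-values measure the spread between these libraries, which may be partly technical. In sorted bulk samples, fewer cells of a kind and less RNA per cell cannot be told apart.

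**Figure D1:**
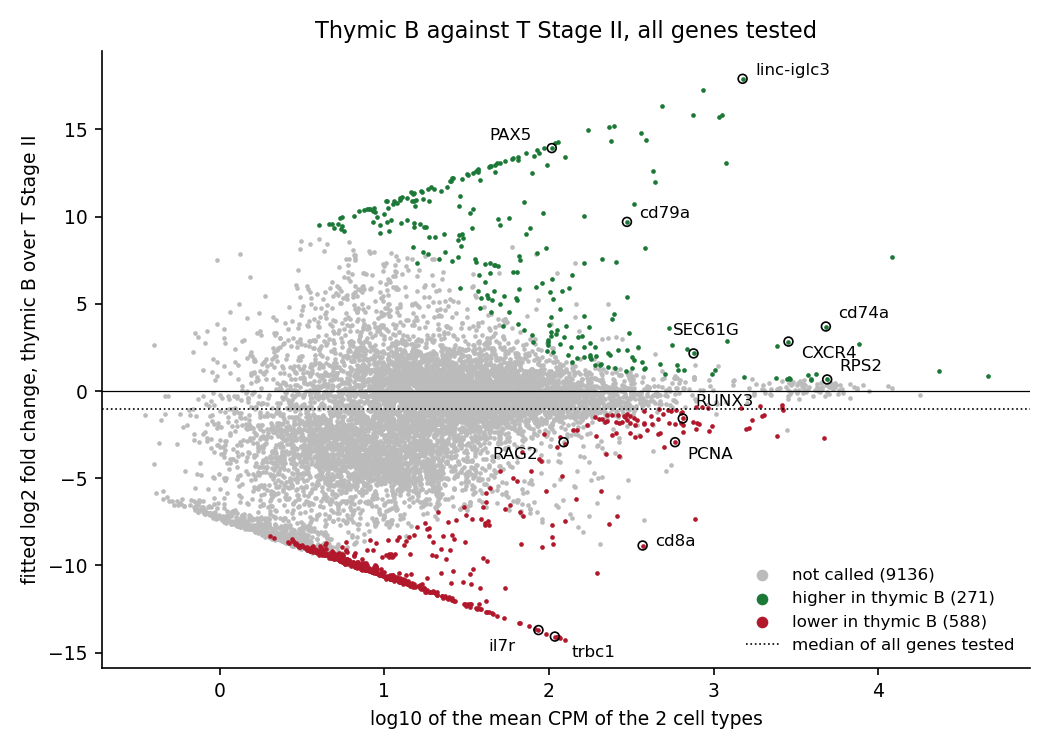
Fitted log2 fold change of thymic B over T Stage II (y axis) against the log10 of the mean CPM of the cell types (x axis) for the 9995 genes tested, with 271 genes called higher in green and 588 called lower in red. The rising and falling edges of points are genes with no count on one side, whose fitted size depends on the prior count; the dotted line is the median of all genes, -1.05.

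The largest differences in favour of thymic B were in immunoglobulin genes, the heavy and light chains of the B cell receptor. The light chain gene linc-iglc3 (ENSDARG00000069839) ran from 1802 to 5430 CPM in thymic B with a median of 2309, and no T Stage II library held a count. It was at least 11348-fold higher, with an edgeR adjusted p of 1.29e-23. The light chain genes igl3c3 (565, 882 and 1702 CPM as lowest, median and highest; at least 3694-fold higher), igic1s1 (946, 1186 and 2840 CPM) and igl1c3 (476, 796 and 1102 CPM) followed, with T Stage II at no more than 0.0981 CPM of any of them. Bounds written as "at least" set the mean against the level of 3 counts and cover counting error only. The gene ight, the heavy chain of the fish isotype IgT (also called IgZ), ran from 181 to 754 CPM in thymic B with a median of 498, and reached 0.0688 CPM in 1 of 6 T Stage II libraries (edgeR adjusted p 1.02e-16). The gene ighd, the heavy chain of IgD, ran from 35.6 to 384 CPM and had no count in T Stage II (edgeR adjusted p 5.6e-09). No counted gene carried the name ighm, the heavy chain of IgM, so its level is not given and is not in the sums. The ight level was 473 ± 206 CPM in thymic B (SD, n = 6). In marrow it was 129 ± 56.2 CPM for B Stage I and 97.0 ± 79.4 CPM for B Stage II (SD, n = 6 each), a description with no test. Of the 21 immunoglobulin rows, 9 passed the low-count filter, which required 10 or more counts in 3 libraries. T Stage II held none of them above 0.114 CPM, so a member could pass only through thymic B, and the 9 calls support nothing by their number. Summed over all 21 rows, immunoglobulin RNA ran from 5709 to 11147 CPM in thymic B and from 0 to 0.138 CPM in T Stage II. Unlike ight, this sum had higher means in the later marrow B stages than in thymic B (7463 ± 2137 CPM, SD, n = 6). It was 5803 ± 474 CPM in B Stage I, 8598 ± 1854 CPM in B Stage II (SD, n = 6 each) and 10664 ± 3089 CPM in B Stage III (SD, n = 3), with no test. Related immunoglobulin genes can share 3′ ends, so the split between them is uncertain.

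Genes of the B cell receptor complex and its signalling had a higher summed level in thymic B. The list ran from 3586 to 6234 CPM there and from 588 to 764 CPM in T Stage II, without overlap. Of 22 tested members 13 were called higher and 1 lower, beside 2.71% and 5.88% of all genes. The number higher ran from 11 to 13 with 1 library dropped and from 3 to 16 over the other settings. The median log2 fold change was 3.56, against -1.05 over all genes. Among the 13, at least cd79a, cd79b, DAPP1 and both SWAP70 copies could enter the test only through thymic B, and the lower member VAV3 only through T Stage II. The receptor chain cd79a ran from 197 to 805 CPM (median 598) in thymic B and from 0 to 13.6 CPM (median 0.0569) in T Stage II. Its log2 fold change was 9.70 (SE 1.96, edgeR adjusted p 0.0198). Here and below, SE is back-calculated from the F statistic of the test. Its partner cd79b was far lower, from 0 to 98.5 CPM (median 28.3), with 1 thymic B library and all 6 T Stage II libraries without a count (edgeR adjusted p 0.00574). These are the endogenous genes, and the promoters of both drive the GFP reporters of the lines. The kinase SYK, which carries the signal from the receptor chains, ran from 574 to 1016 CPM in thymic B and from 0 to 10.0 CPM in T Stage II (log2 fold change 8.21, edgeR adjusted p 0.0312). Its adaptor blnk ran from 399 to 1328 CPM and from 0 to 4.13 CPM (log2 fold change 10.71, edgeR adjusted p 0.0202). Neither gene overlapped between the groups. SYK was not called when thymic B replicate 5, 33 or 35 or T Stage II replicate 25 was dropped, at an adjusted p of at most 0.0537.

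The adaptor DAPP1 (25.7 to 432 CPM, median 54.7) was near 0 in T Stage II (edgeR adjusted p 7.13e-05), and both SWAP70 copies, which code for a B cell protein that acts on the actin skeleton, had no count there. PLCG2, the phospholipase of the B cell pathway, had a log2 fold change of 2.52 (SE 0.53, edgeR adjusted p 0.00183). That of the lipid phosphatase INPP5D, a brake on receptor signals, was 3.40 (SE 0.76, edgeR adjusted p 0.00362). The 1 member that was lower was VAV3, an exchange factor for small GTPases, at 3.65 to 70.6 CPM (median 43.1) in T Stage II and without a count in thymic B (edgeR adjusted p 0.00414, at least 120-fold lower). Members without a call included BTK (30.3 to 112 CPM against 0 to 15.8 CPM, no overlap, edgeR adjusted p 0.092), PIK3CD (log2 fold change 0.29, edgeR adjusted p 0.762) and the kinase blk, which was at 0 in 4 of 6 thymic B libraries and ran from 10.2 to 66.7 CPM in T Stage II (edgeR adjusted p 0.24).

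Other surface and effector genes were among the largest differences. The tetraspanin cd37, a B cell surface protein, ran from 83.5 to 607 CPM in thymic B with a median of 325 and had no count in T Stage II (edgeR adjusted p 3.17e-14, at least 1302-fold higher). The gene cybb, the catalytic subunit of the phagocyte NADPH oxidase, ran from 51.6 to 464 CPM (median 206) against no count (edgeR adjusted p 3.41e-11, at least 864-fold higher). Its partner NCF1, a cytosolic subunit of that oxidase, ran from 256 to 671 CPM in thymic B and from 9.90 to 58.5 CPM in T Stage II (log2 fold change 4.11, SE 0.48, edgeR adjusted p 6.39e-08). Both are also abundant in granulocytes and macrophages. The granulocyte and mast cell list, which holds NCF1, summed to 521 to 1588 CPM in thymic B and 150 to 389 CPM in T Stage II, without overlap. Its 1 called member of 5 tested was NCF1, beside 2.71% of all genes called higher. Its defining neutrophil genes were low: lyz had a count in 3 of 6 thymic B libraries, at most 15.4 CPM, and npsn in 2, at most 70.1 CPM, and neither had one in T Stage II. The granulocyte list also holds srgn, at 148 to 823 CPM in thymic B and 89.1 to 347 CPM in T Stage II, and il6r, at 0 to 277 and 0.138 to 50.2 CPM. The 16 macrophage and dendritic cell markers summed to 78.1 to 462 CPM in thymic B and 71.6 to 231 CPM in T Stage II, with overlap. None of the 5 tested was called by edgeR; at an unadjusted p under 0.05, 2 were lower and 0 higher, and no setting called more than 1 in either direction. Of the 16, 9 had no count in thymic B, c1qb, c1qc and marco among them. Of these 9, 5 had no count in any of the 12 libraries, c1qa and csf1ra among them, so they do not separate the populations. The lysosomal genes cd68 (22.6 to 205 against 7.14 to 98.9 CPM) and ctss2.1 (33.1 to 283 against 14.6 to 61.6 CPM) had counts in every library. The part of such cells in these results was not tested. The cybb level was 225 ± 99.9 CPM in marrow B Stage II and 204 ± 59.4 CPM in B Stage III (SD, n = 6 and 3). The gene XIRP2_ENSDARG00000071113, which carries the symbol of a muscle actin-binding protein, ran from 71.2 to 260 CPM in thymic B (median 201) against no count (edgeR adjusted p 3.46e-10). Its mean in marrow B Stage II was 211 ± 141 CPM (SD, n = 6), and the values of skeletal muscle markers are given further on.

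Of 18 tested B lineage transcription factors 6 were higher and 0 lower, beside 2.71% of all genes higher. Their median log2 fold change was 2.55, against -1.05 over all genes. The number higher ran from 4 to 6 with 1 library dropped and from 2 to 7 over the other settings. PAX5 and EBF1, without a count in T Stage II, could enter the test only through thymic B. PAX5, which commits cells to the B lineage, ran from 57.0 to 426 CPM (median 188) in thymic B and EBF1, which acts with it, from 37.8 to 447 CPM (median 144). Neither had a count in T Stage II (at least 787-fold and 610-fold higher, edgeR adjusted p 1.45e-10 and 1.71e-08). XBP1, a factor of the secretory pathway and of plasma cells, ran from 38.2 to 362 CPM (median 289) against 3.12 to 34.8 CPM (median 16.5), a log2 fold change of 3.72 (SE 0.70, edgeR adjusted p 0.00045). SPI1, a factor of B and myeloid cells, ran from 373 to 578 CPM in thymic B against 0 to 11.4 CPM, with an edgeR adjusted p of 0.0396. With 1 library dropped at a time, SPI1 was not called in 9 of 12 fits (highest adjusted p 0.0667). The Oct factor pou2f2b rose by 7.35 on the log2 scale (edgeR adjusted p 0.0142) and IRF8 by 5.50 (edgeR adjusted p 0.0295). IRF8 was not called in 5 of 12 fits with 1 library dropped (highest adjusted p 0.0816). PRDM1, which drives plasma cell formation, had a count in 2 of 6 thymic B libraries, at most 59.4 CPM. BCL6 and BACH2 were not called (log2 fold changes -0.08 and -1.06, edgeR adjusted p 0.986 and 0.347).

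The MHC class II pathway, by which professional presenting cells show peptides to CD4 T cells, had a higher summed level in thymic B. The list summed to 8963 to 15109 CPM in thymic B and 779 to 2341 CPM in T Stage II, without overlap. Of 12 tested members 4 were higher, 0 lower and 8 not called, beside 2.71% of all genes higher. The median log2 fold change was 1.80, against -1.05 over all genes. The invariant chain gene cd74a, whose protein guards the peptide groove, ran from 6376 to 12468 CPM (median 8671) against 322 to 1685 CPM (median 605), a log2 fold change of 3.70 (SE 0.46, edgeR adjusted p 0.000943). Its second copy cd74b ran from 1077 to 2825 CPM (median 2136) against 208 to 498 CPM (median 286), a log2 fold change of 2.85 (SE 0.27, edgeR adjusted p 5.88e-10). T Stage II thus held both transcripts in every library, at lower levels. The gene ciita, the master activator of class II genes, rose by 2.67 (SE 0.65, edgeR adjusted p 0.00802), from 14.3 to 78.0 CPM in T Stage II to 86.0 to 357 CPM in thymic B. The cathepsin ctss2.2, a protease of the ctss family, rose by 5.35 (SE 1.39, edgeR adjusted p 0.0142). Another listed member of that family, ctss2.1, ran from 33.1 to 283 CPM against 14.6 to 61.6 CPM and was not called. The class II chain mhc2daa, which is not in the list, stood at 941 ± 614 CPM in thymic B and 170 ± 104 CPM in T Stage II (SD, n = 6 each; log2 fold change 2.61, edgeR adjusted p 1.01e-07). The class I light chain b2m, also outside the list, was higher by 2.57 (SE 0.24, edgeR adjusted p 3.46e-10). The chain mhc2dab had a count in 4 of 6 thymic B libraries, from 0 to 630 CPM, and 5 of 6 T Stage II libraries, from 0 to 159 CPM (edgeR adjusted p 0.997). The cd74a level was 5063 ± 1532 CPM in B Stage II and 2219 ± 614 CPM in B Stage I (SD, n = 6 each).

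**Figure D2:**
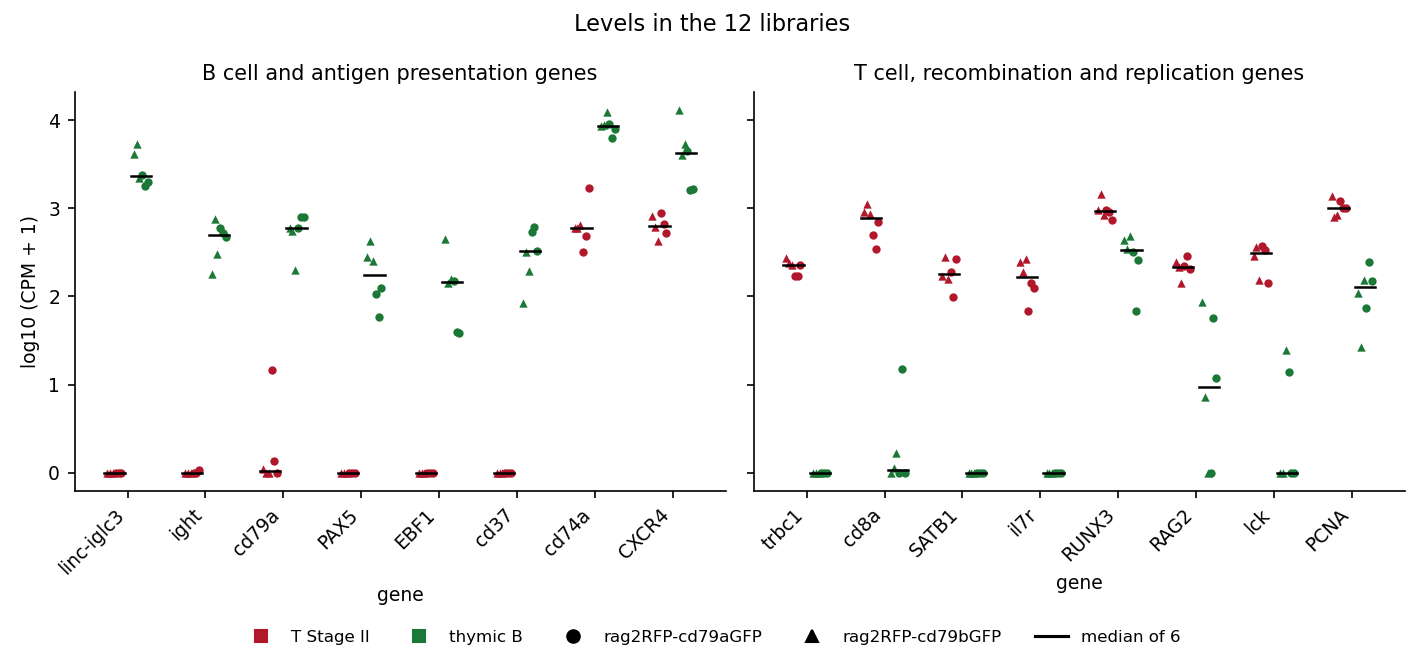
Level of 16 genes in the 12 libraries as log10 of CPM + 1 (y axis), T Stage II in red and thymic B in green, circles for rag2RFP-cd79aGFP and triangles for rag2RFP-cd79bGFP, with a bar at the median of 6. PAX5, EBF1 and linc-iglc3 have no count in T Stage II, and trbc1, SATB1 and il7r have none in thymic B, while RUNX3 is present in both.

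In the other direction the T cell receptor genes were at or near 0 in thymic B. The beta chain constant gene trbc1 ran from 169 to 270 CPM (median 229) in T Stage II and had no count in thymic B (edgeR adjusted p 1.78e-10, at least 641-fold lower). The alpha joining gene traj1 ran from 78.3 to 362 CPM (median 241) against no count (edgeR adjusted p 1.95e-10). The coreceptor cd8a ran from 347 to 1124 CPM (median 778) in T Stage II and from 0 to 13.9 CPM in thymic B, a log2 fold change of -8.86 (SE 2.14, edgeR adjusted p 0.037). With 1 library dropped at a time, cd8a was not called in 8 of 12 fits, at an adjusted p of at most 0.0772. The coreceptor cd4-1 ran from 138 to 488 CPM against 0 to 9.27 CPM, without overlap (edgeR adjusted p 0.0541), so T Stage II libraries held RNA of both coreceptors. The list of receptor chains, coreceptors and costimulators summed to 840 to 2256 CPM in T Stage II and 0 to 86.3 CPM in thymic B. Of its 7 tested members 3 were lower and 0 higher, beside 5.88% of all genes lower, with a median of -7.07 against -1.05. The 3 were trbc1, cd8a and cd226, the last an adhesion and costimulatory receptor at 38.4 to 252 CPM against no count. As trbc1 and cd226 had no count in thymic B, they could enter the test only through T Stage II. The same held for cd8a, which was above 0.691 CPM in thymic B replicate 34 alone. The costimulator cd28 ran from 27.6 to 123 CPM and from 0 to 35.8 CPM (edgeR adjusted p 0.31).

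Of the proximal signalling genes downstream of the T cell receptor, 5 of 23 tested were lower and 0 higher, beside 5.88% of all genes lower. Their median log2 fold change was -1.37, against -1.05 over all genes. The number lower ran from 4 to 6 with 1 library dropped and from 1 to 9 over the other settings. The kinase lck ran from 141 to 371 CPM (median 312) in T Stage II and from 0 to 23.9 CPM (median 0) in thymic B without overlap, but did not pass (log2 fold change -5.46, SE 1.98, edgeR adjusted p 0.113). The kinase ZAP70 ran from 137 to 397 CPM against 0 to 5.12 CPM (log2 fold change -7.47, SE 1.47, edgeR adjusted p 0.00621), and PLCG1, the phospholipase of the T cell pathway, from 281 to 778 CPM against 26.7 to 196 CPM (log2 fold change -2.62, SE 0.41, edgeR adjusted p 2.68e-05). The adaptor lat fell by 7.70 (edgeR adjusted p 0.0443), and was not called in 6 of 12 fits with 1 library dropped. The protein kinase C isoform gene PRKCQ (13.1 to 87.6 CPM against no count) and the signalling adaptor sh2d1ab (27.3 to 109 CPM against at most 0.0986 CPM) were lower too. The gene grap2b, an adaptor of the SLP-76 pathway, stood at 592 ± 89.9 CPM in T Stage II and 608 ± 96.0 CPM in thymic B (SD, n = 6 each; edgeR adjusted p 0.825). The gene lcp2a, which codes for SLP-76, stood at 122 ± 32.2 and 144 ± 84.3 CPM (SD, n = 6 each; edgeR adjusted p 0.792), so neither differed by more than the spread between libraries.

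Among T lineage transcription factors and Notch genes 9 of 26 tested were lower in thymic B and 0 higher, beside 5.88% of all genes lower. The median log2 fold change was -4.14, against -1.05 over all genes. The number lower ran from 6 to 10 with 1 library dropped and from 1 to 15 over the other settings. SATB1, TCF7, bcl11bb and NOTCH1_ENSDARG00000052094, without a count in thymic B, could enter the test only through T Stage II. SATB1, a chromatin organiser of thymocytes, ran from 98.4 to 279 CPM (median 179) and had no count in thymic B (edgeR adjusted p 1.38e-09, at least 567-fold lower). TCF7, a factor induced early in T cell commitment, ran from 14.3 to 156 CPM against no count (edgeR adjusted p 0.00231). The commitment factor bcl11ba was the most abundant of the list in T Stage II, 1116 to 2052 CPM, and ran from 0 to 31.5 CPM in thymic B (log2 fold change -7.32, SE 1.52, edgeR adjusted p 0.0213), while its second copy bcl11bb had no count there. The factor rorc, which in mouse supports the survival of double-positive thymocytes, was lower by 8.78 (SE 1.82, edgeR adjusted p 0.00949). GATA3 ran from 234 to 934 CPM against 0 to 47.8 CPM and TOX from 157 to 421 CPM against 0 to 44.9 CPM; neither overlapped and neither passed (edgeR adjusted p 0.0738 and 0.111).

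RUNX3, a factor of CD8 T cells and innate lymphocytes, ran from 741 to 1471 CPM (median 938) in T Stage II and from 67.3 to 480 CPM (median 333) in thymic B, so that the groups did not overlap but every thymic B library held the transcript. Its log2 fold change was -1.58 (SE 0.32, edgeR adjusted p 0.00118), and it was not called in a fit over all 53 libraries (adjusted p 0.276) or in either line alone (0.12 and 0.0597). The copies of NOTCH1, the receptor that directs progenitors to the T lineage, had values of opposite sign. NOTCH1_ENSDARG00000052094 had no count in thymic B and 0 to 23.7 CPM in T Stage II (edgeR adjusted p 0.0384; not called in 7 of 12 fits with 1 library dropped). NOTCH1_ENSDARG00000103554 ran from 7.39 to 233 CPM in thymic B and 0 to 28.8 CPM in T Stage II (log2 fold change 3.91, edgeR adjusted p 0.0559, no call).

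Other genes with the largest negative differences each had no count in thymic B. ANPEP_ENSDARG00000036809, a membrane aminopeptidase, ran from 136 to 342 CPM in T Stage II (median 261; edgeR adjusted p 2.84e-11, at least 743-fold lower). RASA4, a Ras GTPase-activating protein, ran from 120 to 337 CPM (median 250; edgeR adjusted p 1.03e-10, at least 688-fold lower). The ATP-gated channel p2rx1 ran from 139 to 291 CPM (median 245; edgeR adjusted p 1.49e-10, at least 666-fold lower). ANPEP_ENSDARG00000036809 also had no count in the 3 marrow B stages or in early T-committed cells, and stood at 233 ± 25.4 CPM in T Stage IV (SD, n = 3).

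V(D)J recombination genes, shared by both lineages while they build receptors, had a lower summed level in thymic B, 800 to 1256 CPM against 3807 to 5601 CPM in T Stage II. Of 18 tested members 5 were called lower, 0 higher and 13 not called, beside 5.88% of all genes lower. At 0 in 1 population were 4 of the 18, polm among them, whose sign was fixed in advance. The list had a median log2 fold change of -4.29, or -3.36 with genes at 0 on one side placed at their bound. Over the settings that did not leave out 1 library, the count ran from 1 to 10. It was 3 when RLE factors replaced TMM and 1 in the cd79b line alone. It was also 3 without any of T Stage II replicates 1, 2, 3 or 25 or thymic B replicates 5, 33, 34 or 35. RAG1 ran from 859 to 1196 CPM (median 912) in T Stage II and from 0 to 105 CPM (median 29.5) in thymic B (log2 fold change -4.58, edgeR adjusted p 0.0534). RAG2 ran from 141 to 289 CPM (median 217) and from 0 to 84.6 CPM (median 8.59), a log2 fold change of -2.94 (SE 1.44, edgeR adjusted p 0.266). Neither pair of groups overlapped and neither recombinase gene passed; 1 thymic B library had no RAG1 count and 2 had no RAG2 count. The rag2 promoter drives the red reporter of both lines, so RAG2 is also a gene of the sort. HMGB2, a DNA-bending protein that aids the recombinase, ran from 938 to 1837 CPM (median 1269) against 161 to 356 CPM (median 243), without overlap (edgeR adjusted p 1.66e-06). The polymerase polm, which fills in light chain joints in mouse, ran from 55.3 to 123 CPM against no count (edgeR adjusted p 2.2e-05, at least 285-fold lower). The copy hmgb2b fell by 2.26 (SE 0.49, edgeR adjusted p 0.00439) with overlap, and was not called without thymic B replicate 5 (adjusted p 0.0539). The base-adding enzyme dntt stayed at or under 10.5 CPM in every library of both groups.

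Class switching and somatic hypermutation genes gave 0 of 9 tested higher and 1 lower, beside 2.71% and 5.88% of all genes. The 1 was the exonuclease exo1 (0 to 37.2 CPM against no count, edgeR adjusted p 0.0337), which was not called in 6 of 12 fits with 1 library dropped. Their summed levels overlapped, at 4.38 to 162 CPM in thymic B and 85.2 to 282 CPM in T Stage II.

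Of 29 tested cytokine receptor and JAK-STAT genes 3 were higher and 2 lower, shares of 10.3% and 6.90% beside 2.71% and 5.88% of all genes, with a median log2 fold change of -0.10 and overlapping sums. The receptor il7r, through which interleukin 7 keeps early lymphocytes alive, ran from 67.9 to 268 CPM (median 165) in T Stage II and had no count in thymic B (edgeR adjusted p 7.48e-09, at least 510-fold lower). The kinase jak2a ran from 198 to 364 CPM (median 276) in thymic B and 9.49 to 65.3 CPM (median 36.1) in T Stage II, a log2 fold change of 3.15 (SE 0.55, edgeR adjusted p 0.000164). The interferon pathway genes stat2 (138 to 557 against 17.8 to 143 CPM) and TYK2 (53.0 to 333 against 2.21 to 66.6 CPM) rose with overlap, by 1.98 and 2.64 (edgeR adjusted p 0.0184 and 0.0247). Both lost their calls without thymic B replicate 5 (adjusted p at most 0.0757), and TYK2 also without replicate 34. The feedback inhibitor SOCS3_ENSDARG00000026611 was lower at an edgeR adjusted p of 0.047, and was not called in 10 of 12 fits with 1 library dropped.

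Of 19 tested migration and adhesion receptors 4 were higher (21.05%) and 1 lower (5.26%), with a median of -0.24. Over all genes 2.71% were higher and 5.88% lower, with a median of -1.05, so the lower share was near that of all genes. The chemokine receptor CXCR4_ENSDARG00000041959, which holds lymphocytes near sources of CXCL12, was the most abundant of them, 1632 to 13070 CPM (median 4255) in thymic B against 430 to 887 CPM (median 638) in T Stage II, a log2 fold change of 2.84 (SE 0.40, edgeR adjusted p 0.000608). Its other copy CXCR4_ENSDARG00000057633 rose by 2.06 (SE 0.52, edgeR adjusted p 0.0105), with overlap, and lost the call in the fit over 53 libraries. The receptor ccr2 (0 to 61.7 CPM, median 27.1, against no count, edgeR adjusted p 0.00756) and the follicle homing receptor CXCR5 (0 to 47.9 CPM against no count, edgeR adjusted p 0.0377) were low even where they were called. CXCR5 was not called in 7 of 12 fits with 1 library dropped. The integrin chain ITGA4 ran from 1.58 to 97.2 CPM in T Stage II and had no count in thymic B (edgeR adjusted p 0.0177). The thymus homing receptor CCR9_ENSDARG00000055186 ran from 136 to 689 CPM in thymic B and 30.8 to 332 CPM in T Stage II (log2 fold change 1.34, edgeR adjusted p 0.0685, no call).

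The summed levels of DNA replication and mitosis genes were lower in thymic B, without overlap. The replication list summed to 449 to 1690 CPM in thymic B and 4702 to 6455 CPM in T Stage II. Of 52 tested members 12 were called lower, 0 higher and 40 not called, beside 5.88% of all genes lower. Of their values 51 were negative, against 6897 of 9995 over all genes. At least 6 of the 52 members had a sign fixed in advance, being at 0 in 1 population, as were 1195 of all genes. The median log2 fold change was -4.91, or -4.80 with genes at 0 on one side placed at their bound, against -1.05 over all genes. The ratio of the mean sums, thymic B over T Stage II, was 0.192, a smaller difference than the median. PCNA, the sliding clamp of the replication fork, ran from 801 to 1369 CPM (median 1013) in T Stage II and from 25.7 to 248 CPM (median 128) in thymic B, a log2 fold change of -2.93 (SE 0.39, edgeR adjusted p 1.2e-06). The ligase LIG1 ran from 320 to 539 CPM against 6.99 to 234 CPM (log2 fold change -2.50, SE 0.50, edgeR adjusted p 0.000923), and TYMS, which makes thymidylate, from 35.8 to 142 CPM against 0 to 10.1 CPM (edgeR adjusted p 0.0236; not called without T Stage II replicate 1 or 25, adjusted p at most 0.0581). The GINS subunit GINS4 ran from 14.0 to 68.5 CPM against at most 0.507 CPM (edgeR adjusted p 0.0126). The number of lower members ran from 7 without T Stage II replicate 1 to 16 with 1 library dropped, and was 2 in the cd79a line alone and 0 in the cd79b line alone.

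The mitosis and spindle list summed to 65.9 to 1168 CPM in thymic B and 2718 to 4709 CPM in T Stage II. Of 40 tested members 9 were called lower, 0 higher and 31 not called, beside 5.88% of all genes lower. At least 6 of the 40 had a sign fixed in advance, being at 0 in 1 population. The median was -5.40, or -5.13 with genes at 0 on one side placed at their bound, against -1.05 over all genes. The ratio of the mean sums, thymic B over T Stage II, was 0.1185, again a smaller difference than the median. TTK, a spindle checkpoint kinase, ran from 55.0 to 124 CPM in T Stage II and reached at most 0.709 CPM in thymic B (log2 fold change -9.58, SE 1.89, edgeR adjusted p 0.000815). The central spindle genes PRC1_ENSDARG00000100918 (7.44 to 45.9 CPM) and KIF23 (5.20 to 54.5 CPM) had no count in thymic B (edgeR adjusted p 0.0105 and 0.0152). Without thymic B replicate 34, which held the highest mitosis sum of its group at 1168 CPM, 18 members were lower; without thymic B replicate 6 the number was 6. It was 1 in the cd79a line alone and 0 in the cd79b line alone. Across the series the replication sum was 4524 ± 511 CPM in marrow B Stage I, 754 ± 389 CPM in B Stage II and 5286 ± 662 CPM in T Stage II (SD, n = 6 each). Thymic B of the rag2 lines stood at 1014 ± 484 CPM (SD, n = 6), a mean within the range of B Stage II. Libraries ran from 449 to 1690 CPM in thymic B of the rag2 lines and from 398 to 1406 CPM in B Stage II. No test was made across cell types.

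**Figure D3:**
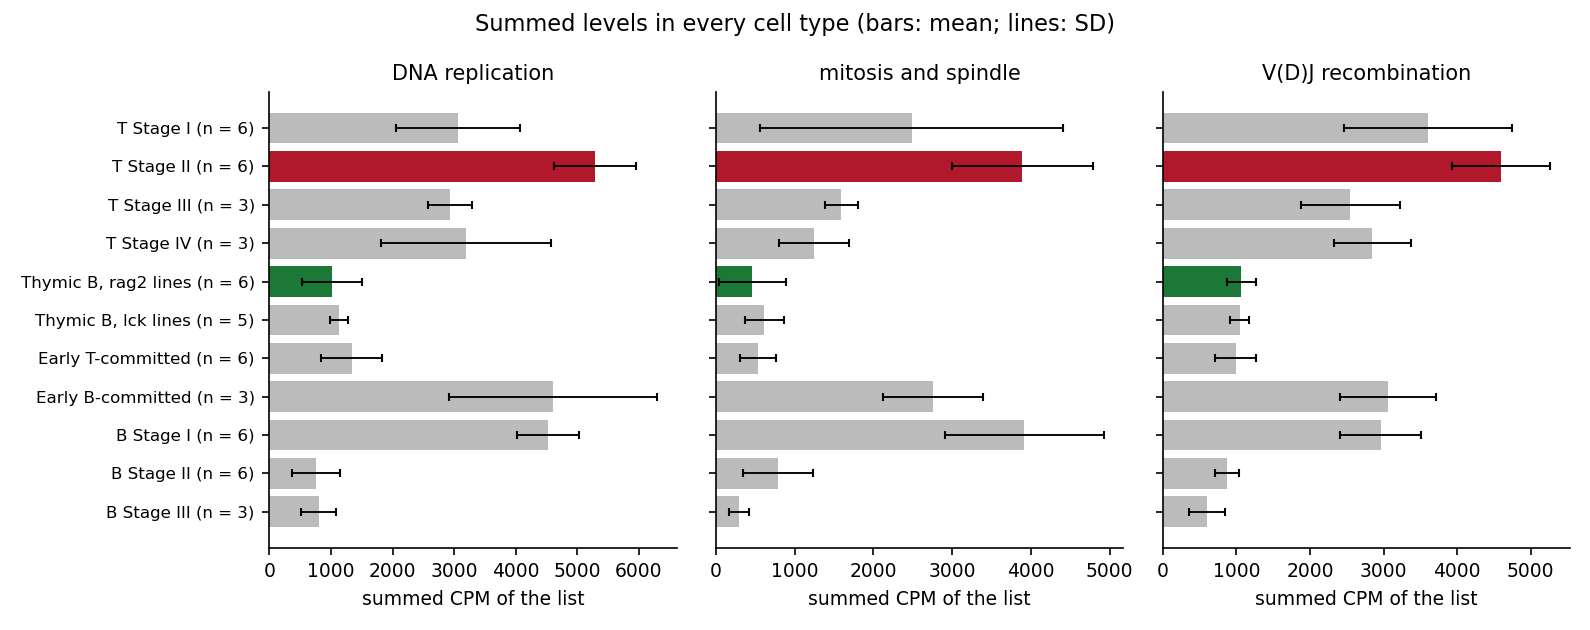
Summed CPM of the DNA replication, mitosis and V(D)J recombination lists (x axes) in each cell type, with thymic B split by line type (y axis); bars are means, lines are SD over libraries, and n is given by each name. T Stage II (red) is at 5286 CPM for replication and thymic B of the rag2 lines (green) at 1014 CPM.

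Cytosolic ribosomal protein genes summed to 239440 to 360910 CPM in thymic B and 232390 to 342280 CPM in T Stage II, with overlap. Of 75 tested members 9 were higher and 0 lower, beside 2.71% of all genes higher (median log2 fold change 0.24, against -1.05 over all genes). RPL22 rose by 0.96 (SE 0.21, edgeR adjusted p 0.00446), RPL30 by 0.92 (SE 0.21, edgeR adjusted p 0.00451) and RPS2 by 0.66 (SE 0.17, edgeR adjusted p 0.0103), each with overlap. The count was 25 when RLE factors replaced TMM, 4 by DESeq2, 2 in the cd79a line alone and 0 in the cd79b line alone. It was 3 when either T Stage II replicate 1 or replicate 35 of thymic B was dropped, and 5 without T Stage II replicate 25 or thymic B replicates 5 or 34. Respiratory chain genes summed lower in thymic B without overlap (8994 to 13890 against 14988 to 22437 CPM, median log2 fold change -0.53). Of 87 members tested 1 was lower (1.15%), below the 5.88% of all genes. That member, the ATP synthase subunit gene atp5mc3b, had a log2 fold change of -1.09 (SE 0.32, edgeR adjusted p 0.0325) and was not called in 5 of 12 fits with 1 library dropped. At an unadjusted p under 0.05 by edgeR, 15 of the 87 were lower and 0 higher. Over the settings that did not leave out 1 library, 0 to 8 were called lower and 0 to 1 higher.

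Proteasome genes gave 0 calls of 46 by edgeR and a median log2 fold change of -1.05, equal to that of all genes to 2 decimals. At an unadjusted p under 0.05, 8 were lower and 0 higher, and DESeq2 and limma voom called 2 and 6 lower. Their sums did not overlap (2232 to 3944 against 4332 to 6007 CPM). In the endoplasmic reticulum list 1 of 49 tested members was higher (2.04%), below the 2.71% of all genes, with a median of -0.10. Its sums overlapped (4794 to 6913 CPM in thymic B against 4203 to 5364 CPM in T Stage II). That member was the translocon subunit gene SEC61G, which passes new secretory proteins into the lumen (434 to 1936 against 210 to 457 CPM, log2 fold change 2.15, SE 0.34, edgeR adjusted p 4.09e-05). Cell death and survival genes gave 0 calls of 27 by edgeR with a median of 0.55. At an unadjusted p under 0.05, 4 were higher and 0 lower, and DESeq2 and limma voom each called 3 higher. The list summed to 2140 to 4135 CPM in thymic B and 1602 to 2108 CPM in T Stage II, without overlap. Its member mcl1a, a survival protein of the BCL2 family, ran from 730 to 1755 CPM and from 616 to 1012 CPM (edgeR adjusted p 0.113).

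**Figure D4:**
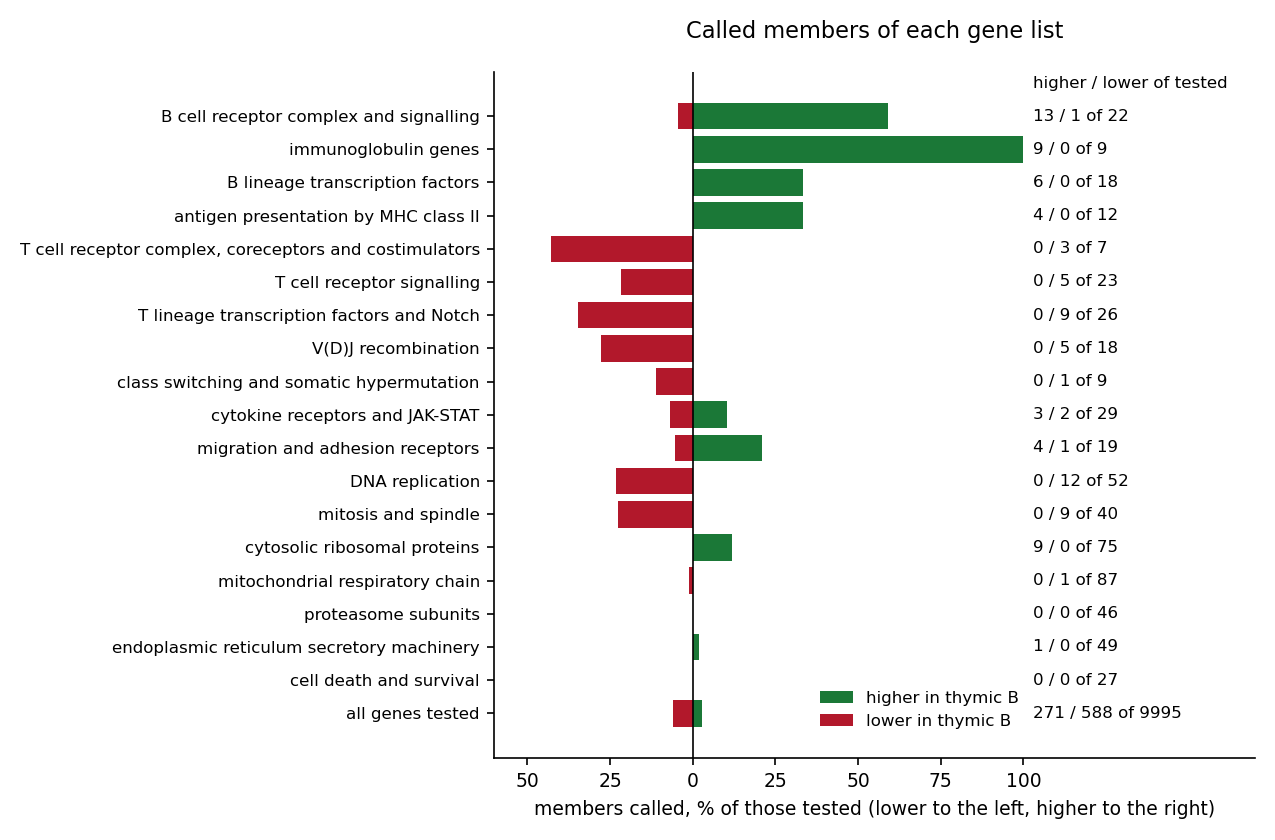
Share of tested members called lower (red, to the left) and higher (green, to the right) in each gene list, as percent of the members tested, with the counts at the right and all genes tested at the bottom. The B cell receptor list has 13 of 22 members higher and the DNA replication list 12 of 52 lower; the immunoglobulin bar holds only members that could pass the filter through thymic B.

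Markers of other cell types were examined beside these results. Erythroid markers summed to 132 to 541 CPM in thymic B and 1.69 to 164 CPM in T Stage II, with overlap. Almost all of it came from the haemoglobin gene hbaa1 (130 to 535 against 0 to 145 CPM), while gata1a had no count in any of the 12 libraries. Skeletal muscle markers reached 419 CPM in thymic B (0 in the lowest library) and 11.1 CPM in T Stage II. Thymic epithelium and stroma markers summed to 52.4 to 394 CPM and 49.8 to 116 CPM. Of their 16 rows 7 had no count in thymic B, epcam and ccl25a among them, and 3 had none in any of the 12 libraries. Others reached higher in thymic B, such as krt5 (0 to 115 against 0 to 11.1 CPM) and col1a1a (7.80 to 130 against 10.9 to 27.9 CPM). Of the 10 tested, 6 had a positive log2 fold change and 4 a negative one. None of the 5 erythroid, 5 muscle, or 10 epithelium and stroma markers tested was called by edgeR. At an unadjusted p under 0.05, 3 muscle markers were higher, 1 epithelium and stroma marker was higher and 2 were lower, and no erythroid marker passed. DESeq2 and limma voom each called 4 muscle markers and 1 erythroid marker higher, and called 2 and 1 epithelium and stroma markers higher. Natural killer and innate lymphoid markers summed to 0 to 58.5 CPM in thymic B and 72.7 to 186 CPM in T Stage II, most of it the granzyme gene gzmk (72.5 to 171 CPM in T Stage II). The part of these cells in the results above was not tested.

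The difference between thymic B and T Stage II differed between the lines for 5 genes by the interaction test of edgeR at an adjusted p of 0.05, of 9995 tested; 1324 genes had an unadjusted p under 0.05. The exchange factor gene arhgef1 (ENSDARG00000055837), which acts on small GTPases in lymphocytes, stood at 1482, 1203 and 1244 CPM in thymic B of the cd79a line (replicates 33 to 35) and at 188, 132 and 179 CPM in thymic B of the cd79b line (replicates 4 to 6). T Stage II held 184, 267 and 124 CPM in the cd79a line and 271, 232 and 339 CPM in the cd79b line. The high values were thus in thymic B of the cd79a line, where every library was above all T Stage II libraries of its line. In the cd79b line all 3 thymic B libraries were below all 3 of T Stage II. The log2 fold change was 3.01 in the cd79a line and -0.72 in the cd79b line, a difference of 3.73 (SE 0.60; edgeR adjusted p 0.0030). In the RefSeq annotation of GRCz12tu, arhgef1 is the next protein-coding gene after cd79a. The gene on the other side, lipeb, had no count in either population of the cd79a line. In the cd79b line lipeb ran from 0 to 37.5 CPM in thymic B and from 0 to 13.5 CPM in T Stage II, and it was not called by the interaction test. For cd79a itself the interaction was -5.62 on the log2 scale (unadjusted p 0.0615, edgeR adjusted p 0.397). The mean cd79a level in thymic B was 734 CPM in the cd79a line and 452 CPM in the cd79b line, and T Stage II held at most 13.6 and 0.114 CPM.

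Over the series, arhgef1 ran from 640 to 2587 CPM in the 12 libraries of marrow B stages and thymic B from both cd79a lines, and from 57.0 to 435 CPM in the 14 such libraries from both cd79b lines, without overlap. In the 27 T lineage and early marrow libraries it ran from 75.7 to 669 CPM. Thymic B of the lckmCherry-cd79aGFP line, made with another red reporter, held 640 to 793 CPM and those of the lckmCherry-cd79bGFP line 177 and 198 CPM. This comparison over the series is a description with no test, and whether the cd79a reporter has a part in it was not tested. The strand setting of the counting is not given, so reads of overlapping transcripts cannot be told apart.

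**Figure D5:**
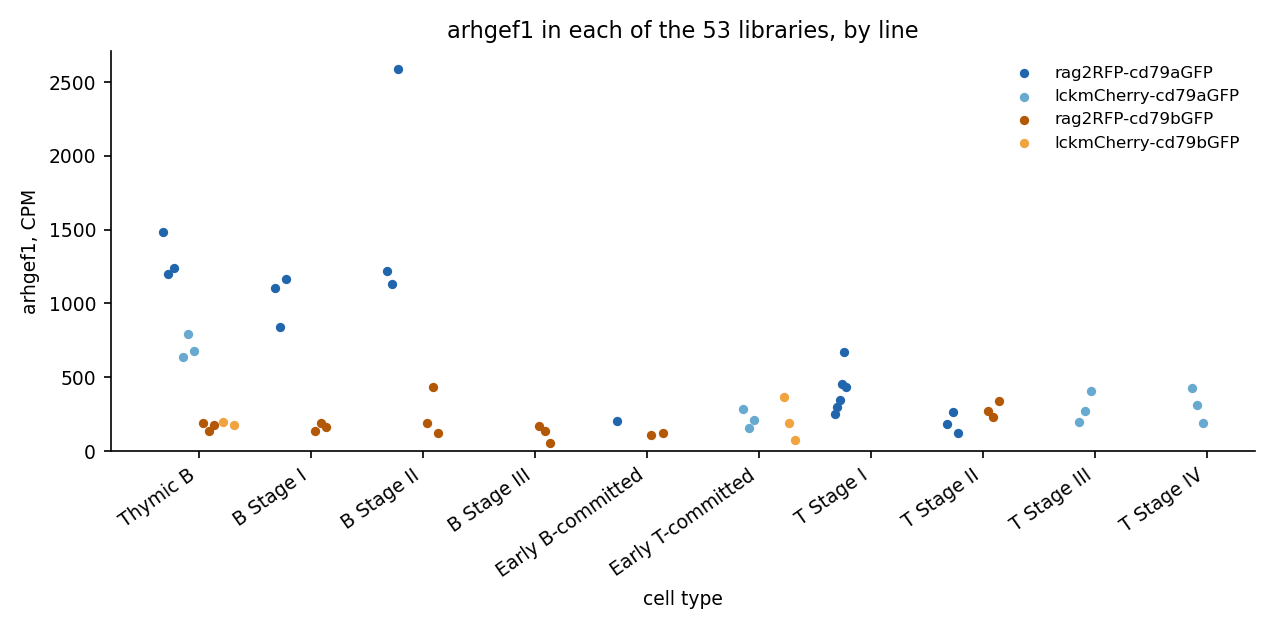
Level of arhgef1 in CPM (y axis) in each of the 53 libraries by cell type (x axis), coloured by line; each point is 1 library. Thymic B and B Stage I to III libraries of both cd79a lines lie between 640 and 2587 CPM and those of both cd79b lines between 57.0 and 435 CPM. The early B-committed library of the rag2RFP-cd79aGFP line is at 205 CPM.

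Of the other 4 genes, ENY2 (ENSDARG00000070046), a subunit of a chromatin and RNA export complex, had no count in thymic B of the cd79b line and 58.3, 99.6 and 142 CPM in thymic B of the cd79a line, with 134 to 214 CPM in T Stage II of both lines (interaction 12.91 on the log2 scale, edgeR adjusted p 0.000393). The unnamed gene si:dkey-19b23.10 had at most 0.0986 CPM in thymic B of the cd79a line and 81.9, 162 and 6.45 CPM in that of the cd79b line, against 162 to 513 CPM in T Stage II (interaction -10.13, edgeR adjusted p 0.000393). Both rest on a group at or near 0, where the fitted size depends on the prior count. The chromatin remodeller smarca1 (interaction -11.86) and the GTPase-activating gene arhgap33 (interaction -9.12) had an edgeR adjusted p of 0.034 each; for smarca1 the group at 0 was thymic B of the cd79a line, and for arhgap33 it was T Stage II of the cd79b line.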

How the data were processed

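Raw counts per gene, as deposited by the authors, were used for all results; the deposited normalised and log-scale tables were not used. The submitters' processing notes name FastQC 0.11.8, STAR, featureCounts, DESeq2 1.38.3 and GRCz11, with no settings; the strand setting is not given in the sources used here. The table held 14423 gene identifiers and 1 gfp row, which was not tested; 13909 identifiers had a symbol. CPM were computed over all rows. Genes with at least 10 counts in at least 3 of the 12 libraries (9995) entered the quasi-likelihood F test of edgeR 4.0.16 (R 4.3.3) with TMM, robust moderation, line as covariate and Benjamini-Hochberg adjustment over all genes; the line difference used a model with 4 group means. Fitted fold changes of genes at 0 on one side depend on the prior count. Values given as SE are the absolute log2 fold change over the square root of the F statistic. They are not standard errors of the fitted coefficient, and give no usable interval for genes at or near 0 on one side. Alternatives were median-ratio (RLE) factors, other filters, DESeq2 1.42.0, limma voom 3.58.1, a 53-library fit, no covariate, thinning, single lines and leaving out each library. Every pair of libraries within a group differed by more than sampling noise (chi-square per degree of freedom 112 to 457). Depth ran from 7756073 to 14752089 counts per library; intervals and floors cover counting error only, since no molecular identifiers are stated.

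The members and gene lists were chosen with earlier results of these data known. The ribosomal list was narrowed after its values were seen, by name, to leave out kinases and a binding protein that share its prefix. Genes named are the 8 with the largest fold change in each direction among called genes with at least 10 CPM on the higher side, no overlap within each line and a proper symbol; up to 3 called members in each direction per list by adjusted p; rag2, lck, cd79a and cd79b; and the 3 leading interaction genes. All other genes named, such as SYK, blnk, NCF1, SPI1, ZAP70, RAG1, GATA3, b2m, mhc2daa, smarca1 and arhgap33, were chosen after their values were seen. A gene that the rule names is not reported here. No sequence is printed.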

Additional observations from a re-analysis of the deposited data

Results flagged for a closer look

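For 20 of 99 groups of 6 libraries tested (20.2%), the highest library lay apart from the others by more than Dixon's critical share of the range; chance flags about 1 in 20 groups of normally spread values. That rate does not hold for igic1s1, ight, sh2d1ab, GINS4 and TTK, where the other 5 libraries were at 0. In thymic B, replicate 4 was the high library for DAPP1 (432 CPM, group median 54.7), EBF1 (447, median 144), CXCR4_ENSDARG00000041959 (13070, median 4255) and LIG1 (234, median 62.4). Replicate 5 was the high one for stat2 (557, median 200.3), and replicate 34 for cd8a (13.9, median 0.0624), GINS4 (0.507) and TTK (0.709), the last pair against a median of 0. For sh2d1ab replicate 35 held 0.0986 CPM against 0 elsewhere in its group.

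In T Stage II, replicate 26 was the high library for cd74a (1685 CPM, group median 605), DAPP1 (0.482) and ight (0.0688). Replicate 24 was the high one for cd79a (13.6 CPM, median 0.0569) and igic1s1 (0.0678), replicate 2 for RUNX3 (1471, median 938) and ciita (78.0, median 26.1), replicate 1 for TCF7 (156, median 26.3) and KIF23 (54.5, median 20.2), and replicate 3 for ITGA4 (97.2, median 10.1). Replicate 1 also held the most detected genes, 11360 against a median of 8773.

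The thymic B to T Stage II difference differed between lines by the interaction test for ENY2 (12.91 on the log2 scale, cd79a line minus cd79b line), si:dkey-19b23.10 (-10.13), arhgef1 (3.73), smarca1 (-11.86) and arhgap33 (-9.12). ENY2 stood at 66.5 and 73.7 CPM in thymic B of the lckmCherry-cd79bGFP line, where the rag2RFP-cd79bGFP line held 0 in all 3 libraries.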

How the results depend on the processing

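The log2 fold changes of the genes that the rule names, the 3 leading interaction genes left out, kept their sign in the settings run. That of arhgef1 was 3.01 within the cd79a line and -0.72 within the cd79b line. Over all called genes, lower calls did not outnumber higher ones in a fit of either line alone. The difference in detected genes kept its call throughout. The number of genes higher in thymic B (271) was 174 with a filter of 10 counts in 6 libraries, 489 by DESeq2, 584 with edgeR's bias-corrected fit (chosen after seeing the data), 115 in the rag2RFP-cd79aGFP line alone and 38 in the rag2RFP-cd79bGFP line alone; with 1 library left out it ran from 202 to 283. The number lower (588) was 337 with that filter, 1336 by DESeq2, 1682 by limma voom, 1041 in the 53-library fit, 1256 without the line covariate, and 99 and 38 in the single lines; with 1 library left out it ran from 289 (T Stage II replicate 1) to 818. The 5 interaction genes became 1252 by DESeq2 and ran from 3 to 78 with 1 library left out, 78, 31 and 22 without thymic B replicates 6, 4 and 33. Of the 859 calls, 397 were made in every fit with 1 library left out and 314 in every fit over both lines; 48 were made in each line alone. DESeq2 called DNA replication and mitosis members lower 32 and 26 times, against 12 and 9, and limma voom 38 and 36; the cd79a line alone gave 2 and 1, and the cd79b line alone 0 and 0. Median-ratio factors gave 318 higher and 516 lower, and thinning to the smallest total 286 and 786. The causes were not tested. The planned legacy fit was the default of the installed version and so was not run apart. No paired analysis was possible because the labels number the libraries uniquely and the groups share no replicate numbers.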
